A study of Mus musculus with 16 samples.

Results

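The 34 genes described here encode glucose and lactate transporters, glycolytic enzymes, enzymes that set the fate of pyruvate, pentose phosphate enzymes, and carriers that bring amino acids and iron into the cell. They were chosen by symbol, and all 34 have an entry among the 56691 genes of the count matrix. The cells were single light zone (LZ) germinal center (GC) B cells, sorted from popliteal lymph nodes of 8 host mice and sequenced by SMART-seq2. Every host had been primed with ovalbumin, had received B1-8hi BTKC481S and B1-8hi BTKWT B cells together, and was boosted with NP-OVA in the footpads. B1-8hi is a knocked-in heavy chain that binds the hapten NP, and BTKC481S is a form of Bruton's tyrosine kinase that the covalent BTK inhibitor acalabrutinib cannot bind. Hosts A7, A8, A10, A11 and A12 were given acalabrutinib and hosts V5, V7 and V9 vehicle. The names of the cells carry host, plate and well but no genotype, so BTKC481S and BTKWT cells of a host are pooled in every value below, and the drug could reach its target in only some of the cells of each treated host. The genotypes were not compared here, and a treatment effect on BTKWT cells alone would be diluted by the other cells.

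Glycolysis splits glucose into pyruvate, which is reduced to lactate or enters mitochondria, and the pentose phosphate pathway branches from it to make NADPH and ribose for nucleotides. In the LZ, B cells that receive T cell help briefly express Myc, grow and enter the cell cycle before they return to the dark zone. Myc is a transcription factor known to act on many genes of glycolysis and of amino acid uptake. The questions put to the data were therefore how strongly the 34 genes were expressed, in how many cells, and how they differed with *Myc* detection, with cycling state and with treatment.

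The matrix holds 637 cells, with 132412 to 1825420 counts each (median 789357), from 45 cells in A7 to 130 in V9. *Cd79a*, a part of the B cell receptor, had counts in 634 cells and *Mef2b*, a GC transcription factor, in 583. Summed over a host, 8 B cell markers reached 6819 to 10009 counts per 1000000 counts (CPM), against 3.40 to 58.3 CPM for 8 T cell markers, 22.1 to 36.3 CPM for 8 macrophage and monocyte markers and at most 7.30 CPM for 6 erythroid markers. Markers of the labelled cell type were thus present, and T cell, macrophage and erythroid markers were low, although *Adgre1*, of the macrophage list, had counts in 243 cells. Summed over a host, 8 LZ markers reached 2450 to 3527 CPM, 6 dark zone markers 1239 to 1506 CPM and 5 plasma cell markers 893 to 1522 CPM. *Jchain*, of the plasma cell list, had counts in 581 cells. The replicate is the host throughout, because cells of 1 host are not independent. A level is the CPM of all cells of a host, or of all its cells in a state, summed, and n = 8 hosts unless stated.

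Most glycolytic enzymes were found in most cells. *Ldha*, which reduces pyruvate to lactate, stood at 604 ± 69.8 CPM (SD, n = 8) and was detected in 83.0% of cells (95% exact binomial interval 79.9 to 85.9%). Its level ran from 499 CPM in A8 to 681 CPM in A11, with a median of 626. *Gapdh*, the glyceraldehyde phosphate dehydrogenase, was detected in 630 of 637 cells (98.9%), with a median of 300.5 counts in those cells and 351 to 437 CPM among hosts. It also varied least from cell to cell, with a coefficient of variation of 0.409, against 0.719 for *Ldha* and 0.793 for *Pkm*. Intervals take the pooled cells of all hosts as independent, so they cover counting error only and leave out the spread between hosts. The protocol also has no molecular identifiers.

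*Pkm*, the pyruvate kinase of the last step (472 ± 54.8 CPM), *Gpi1*, the glucose phosphate isomerase (441 ± 58.4 CPM), and *Aldoa*, the aldolase that splits the sugar (387 ± 39.1 CPM), were each found in 76.8 to 80.5% of cells. *Aldoc*, another aldolase, was found in 25 cells (3.92%) at 18.4 ± 8.37 CPM. *Tpi1*, which interconverts the triose phosphates, stood at 273 ± 53.1 CPM and in 66.4% of cells. *Eno1*, the enolase, stood at 209 ± 27.9 CPM, *Pgam1*, the phosphoglycerate mutase, at 165 ± 26.0 CPM and *Pgk1*, the phosphoglycerate kinase, at 128 ± 31.9 CPM. Levels can be compared between genes only per kilobase of exon, and on this scale *Ldha* was the highest member (183 CPM per kb), followed by *Aldoa* (133), *Taldo1* (119), *Tpi1* (99.2), *Slc1a5* (94.7), *Pkm* (94.5) and *Gapdh* (91.6). *Eno1* (38.8) and *Pfkp* (18.3) were lower, and *Slc2a1* (3.39) and *Slc7a5* (2.35) far lower. Exon lengths came from another annotation release and joined the exons of all annotated transcripts of a gene, such as 4133 bases for *Gapdh* and 13401 for *Pfkp*. The order on this scale thus also depends on how many transcripts are annotated. Intron reads were counted too, so values per kilobase are approximate.

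Genes of the committed early steps were sparse except for *Pfkp*. Of the 3 phosphofructokinases, which commit sugar to glycolysis, *Pfkp* was found in 45.2% of cells (245 ± 60.3 CPM), *Pfkl* in 17.7% (67.4 ± 28.4 CPM) and *Pfkm* in 5.18% (8.85 ± 6.37 CPM). The hexokinases *Hk1* and *Hk2*, which trap glucose in the cell, were found in 19.2% and 15.7% of cells. Of the glucose transporters, *Slc2a1* (GLUT1) was found in 6.59% of cells at 11.9 ± 7.92 CPM and *Slc2a3* (GLUT3) in 22.8% at 35.0 ± 10.2 CPM. Of the lactate carriers, *Slc16a1* was found in 14.3% of cells and *Slc16a3* in 1.10%. *Pdha1*, a subunit of the pyruvate dehydrogenase complex, was found in 25.4% and *Pdk1*, a kinase that inhibits this complex, in 13.3%.

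Amino acid carriers were unevenly represented. *Slc1a5*, a carrier of glutamine and other neutral amino acids, was found in 74.4% of cells (395 ± 35.7 CPM) and *Slc38a1*, another glutamine carrier, in 67.5% (373 ± 55.6 CPM). *Slc7a1*, a carrier of cationic amino acids (176 ± 52.6 CPM), *Slc7a6*, an exchanger of cationic and neutral amino acids (151 ± 22.7 CPM), and *Slc38a2* (117 ± 27.1 CPM) were each found in 33.0 to 44.4% of cells. *Slc3a2*, the heavy chain that pairs with *Slc7a5* (LAT1), was found in 36.4% of cells. *Slc7a5* itself was found in 8.01%, at 8.72 ± 6.67 CPM and with no count in A7. Of the pentose phosphate enzymes, *Tkt* (413 ± 61.1 CPM) and *Taldo1* (257 ± 41.8 CPM), of the non-oxidative branch, were found in 71.0% and 67.5% of cells, and *Pgd*, of the oxidative branch, in 35.6%.

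**Figure D1:**
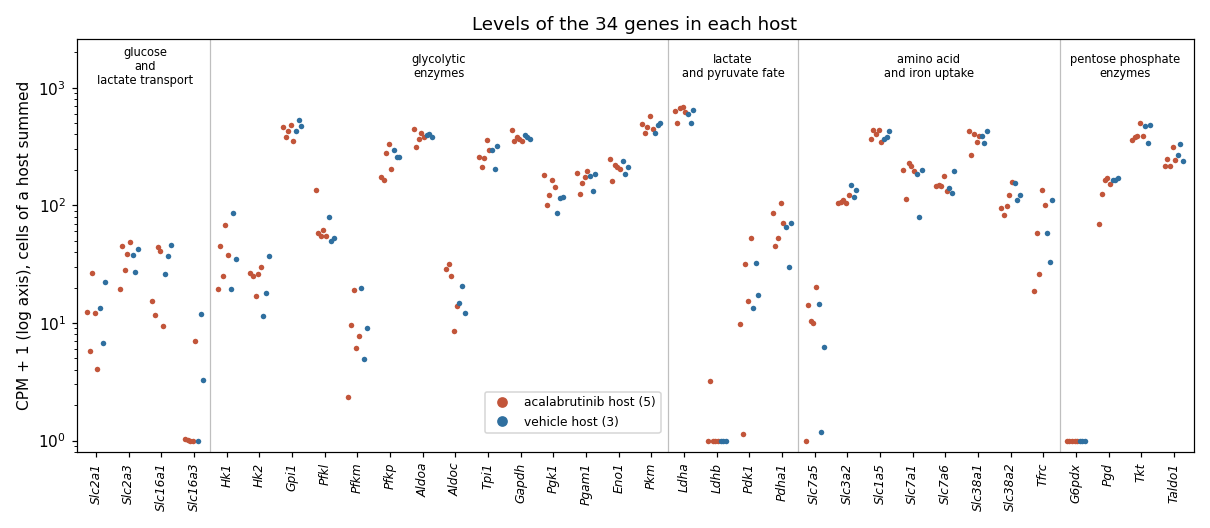
Level of each of the 34 genes in each of the 8 hosts, as CPM + 1 on a log axis, grouped by role. The points of a gene lie close together for abundant enzymes such as *Gapdh* (351 to 437 CPM) and spread widely for *Tfrc* (17.7 to 133 CPM), and the treated and vehicle hosts overlap.

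How many reads stand behind a detection differed between genes. Of the 34 members, 13 were detected in over 50% of cells, 8 in 25% to 50%, 6 in 10% to 25% and 7 in under 10%. Where a threshold of 10 counts was used instead of 1, *Ldha* kept 79.7% of cells and *Gapdh* 98.1%, but *Slc2a3* was left with 9.42% and *Pdk1* with 4.40% of cells. The median was 3 counts per positive cell for *Slc2a3* and 1 count for *Pdk1*, against 552 for *Ldha*. A detection of *Slc2a3* or *Pdk1* therefore often rested on very few reads.

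**Figure D2:**
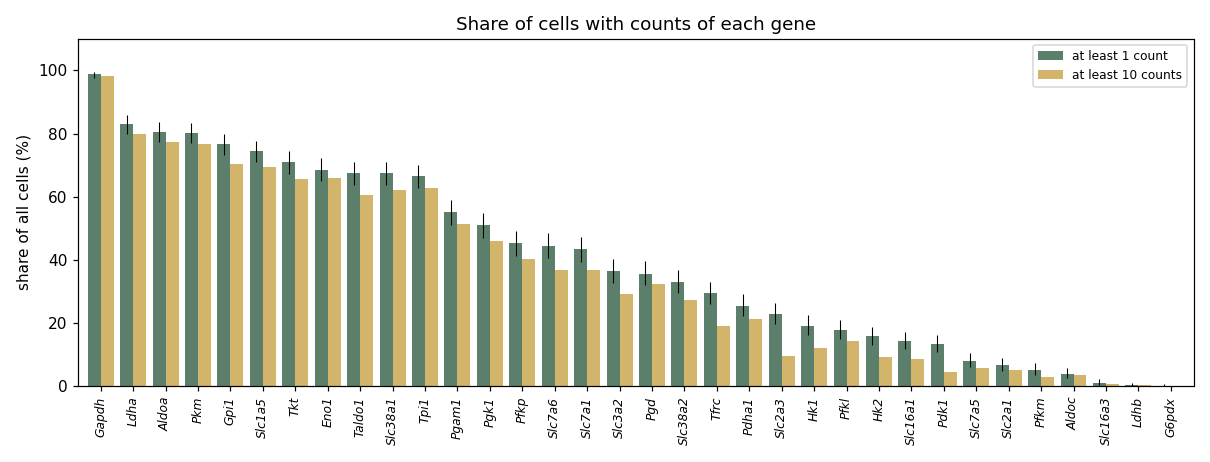
Share of the 637 cells with at least 1 count (green, with 95% exact binomial intervals) and with at least 10 counts (yellow) of each gene, ordered by the first share. The bars fall from 98.9% for *Gapdh* to 0 for *G6pdx*, and the gap between both bars is widest in proportion for *Slc2a3* and *Pdk1*.

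*G6pdx*, the dehydrogenase that opens the pentose phosphate pathway, had 0 counts in all 637 cells, which allows a share of up to 0.471% if 3 cells are taken as the limit of a count of 0, and up to 0.577% by the exact binomial interval used for the other shares. This 0 cannot be read as absence. In the GENCODE M21 annotation, 100% of the exon bases of *G6pdx* lie inside *Ikbkg*, a gene on the other strand. *Hif1a*, *Txnip* and *Ms4a1* are also at 0 in every cell, and 100% of the exon bases of each lie inside other genes as well. Of 1315 protein-coding genes of the matrix with all exon bases inside another gene, 1181 (89.81%) had no count, against 1445 of 14338 (10.08%) with no such base. The level of *G6pdx* is thus not known from these counts. Partial overlap touched *Slc2a1* (61.29% of exon bases), *Aldoa* (50.6%) and *Pdha1* (30.61%). It also touched *Pkm* (15.34%, all on the same strand), *Pfkm* (12.51%), *Hk1* (9.11%) and *Pfkp* (5.58%), and a few other members to a smaller extent. Its part in their levels was not tested. *Ldhb*, the other lactate dehydrogenase subunit, has no overlapping gene and had counts in only 1 cell, of A8. *Gapdh*, *Ldha*, *Pgk1*, *Tpi1*, *Eno1* and other glycolytic genes have near-identical processed copies in the mouse genome, so their counts are uncertain to the extent that reads were split.

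*Myc* was detected in 177 cells (27.8%), with a median of 358 counts where detected and only 15 cells with fewer than 10. The share of *Myc*-detected cells ran from 10.9% in V7 and 11.1% in A7 to 43.9% in A11. Hosts differed more in *Tfrc*, the transferrin receptor that takes up iron, than in any other member above 50 CPM. It was lowest in A7 (17.7 CPM), with 24.9 CPM in A10, 32.1 in V7, 57.1 in A8, 57.6 in V5, 109.6 in V9 and 133 in A11, and A12 lay between V5 and V9. The hosts at both ends of this order were also near the ends of the share of *Myc*-detected cells, but A10, with 30.8% of such cells, was low in *Tfrc*. Depth differed along this order as well. Median counts per cell were 605715 in A7, against 866364 in A11, 860076 in V9 and 946463 in A12, but V5 was as shallow (599290). The part of either in *Tfrc* was not tested.

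*Tpi1*, *Slc7a1* and *Slc7a6* were higher in *Myc*-detected than in *Myc*-negative cells of the same host in 8 of 8 hosts, but no member passed the test. For *Slc7a1* the level in *Myc*-negative cells ran from 70.0 CPM through a median of 153 to 191 CPM, and in *Myc*-detected cells from 144 through 256 to 376 CPM. All 8 hosts were higher in their *Myc*-detected cells, although the ranges overlapped. The log2 fold change was 0.73 ± 0.19 (SE; p = 0.00302 before and 0.366 after Benjamini-Hochberg adjustment, edgeR quasi-likelihood test with the host as a block). *Tpi1* ran from 183 through 242 to 341 CPM in *Myc*-negative and from 261 through 365 to 442 CPM in *Myc*-detected cells, a log2 fold change of 0.46 ± 0.14 (edgeR adjusted p = 0.439). *Slc7a6* ran from 89.5 through 138 to 167 CPM and from 151 through 213 to 277 CPM, with a log2 fold change of 0.59 ± 0.22 (edgeR adjusted p = 0.504). Every host was again higher in its *Myc*-detected cells.

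The 3 members are 9.38% of the 32 tested. Over all 21031 genes tested, 0.718% were higher in 8 of 8 hosts, and 2.32% of those at 50 CPM or more, while 1.68% and 2.36% were lower in 8 of 8 hosts and no member was. By edgeR 0 of the 32 members and 0.0% of all genes passed the adjusted threshold of 0.05, with 4 members (12.5%) and 2010 genes (9.56%) at an unadjusted p under 0.05. The fourth of these members was *Slc38a2*, at a log2 fold change of 0.73 ± 0.32 (edgeR adjusted p = 0.519), higher in 6 of 8 hosts. DESeq2, run as an alternative, called 5 members (15.6%) and 1547 genes (7.36%), among them *Slc7a1*, *Tpi1* and *Slc7a6* as higher. The other members called were *Pfkm* and *Slc16a3*, both near 0 in some of the sums. Only 5 *Myc*-detected cells of A7 and 6 of V7 entered these sums, and without both hosts edgeR called 0 members and 0 genes.

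In the sums of all 8 hosts the other members differed less evenly with *Myc*. *Tfrc* (110 ± 66.9 against 48.5 ± 35.7 CPM), *Pfkp* (314 ± 112 against 216 ± 58.9 CPM) and *Pgk1* (146 ± 40.4 against 118 ± 33.6 CPM) were each higher in *Myc*-detected cells in 7 of 8 hosts. None of these passed (edgeR adjusted p = 0.712, 0.714 and 0.788). *Gapdh* stood at 379 ± 17.4 CPM in *Myc*-detected and 377 ± 34.2 CPM in *Myc*-negative cells (log2 fold change -0.05 ± 0.12), and *Aldoa* at 395 ± 52.1 and 380 ± 51.9 CPM. For *Ldha* the levels were 695 ± 129 and 566 ± 73.8 CPM, the first being the higher in 6 of 8 hosts (log2 fold change 0.22 ± 0.14, edgeR adjusted p = 0.627). *Slc1a5* went the other way in 6 of 8 hosts, at 352 ± 120 against 401 ± 41.8 CPM. Summed over the 14 glycolytic enzymes and *Ldha*, the level was 3824 ± 368 CPM in *Myc*-detected and 3304 ± 365 CPM in *Myc*-negative cells. This sum was lower in the *Myc*-detected cells of A7 and A10 and higher in those of the other hosts. The median log2 fold change of the members was -0.01 and that of all genes tested -0.72. Among genes at 50 CPM or more it was 0.09 for 22 members and -0.18 for 4948 genes. The medians over all levels moved with the fit. They were 0.13 for the members and -0.41 for all genes without A7 and V7, and 0.28 and -0.02 without the host block.

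Several members were also found in a larger share of *Myc*-detected cells. *Hk2* was found in 29.4% of *Myc*-detected cells (22.8 to 36.7%) and in 10.4% of *Myc*-negative cells (7.79 to 13.6%). These intervals pool the cells of all hosts and are no test. *Myc*-detected cells came unevenly from hosts, with 50 in A11 and 5 in A7. *Myc*-detected cells were deeper (median 890495 against 751578 counts and 4329 against 3800 genes). Cells were therefore also thinned to 459128 counts each, which left out 6 and 58 shallower cells. *Myc* was called again on the thinned counts, which gave 166 *Myc*-detected and 407 *Myc*-negative cells. The shares of *Hk2* were then 27.7% and 10.1%, those of *Tfrc* 41.0% and 22.6%, and those of *Slc38a2* 47.0% and 26.0%. *Pfkp* was found in 62.7% against 36.6% of thinned cells, and *Tpi1* in 80.7% against 60.4%. These 5 genes were higher in each of the 7 hosts with at least 5 thinned cells on both sides, which is 19.2% of the 26 members found in at least 10% of thinned cells, against 7.05% of all such genes. At equal depth *Myc*-detected cells also held more genes of any kind (median 3821.5 against 3462), and the part of this in the shares was not tested. The counts of *Hk2* remained low, and its summed level was 32.7 ± 26.8 against 20.3 ± 10.6 CPM.

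**Figure D3:**
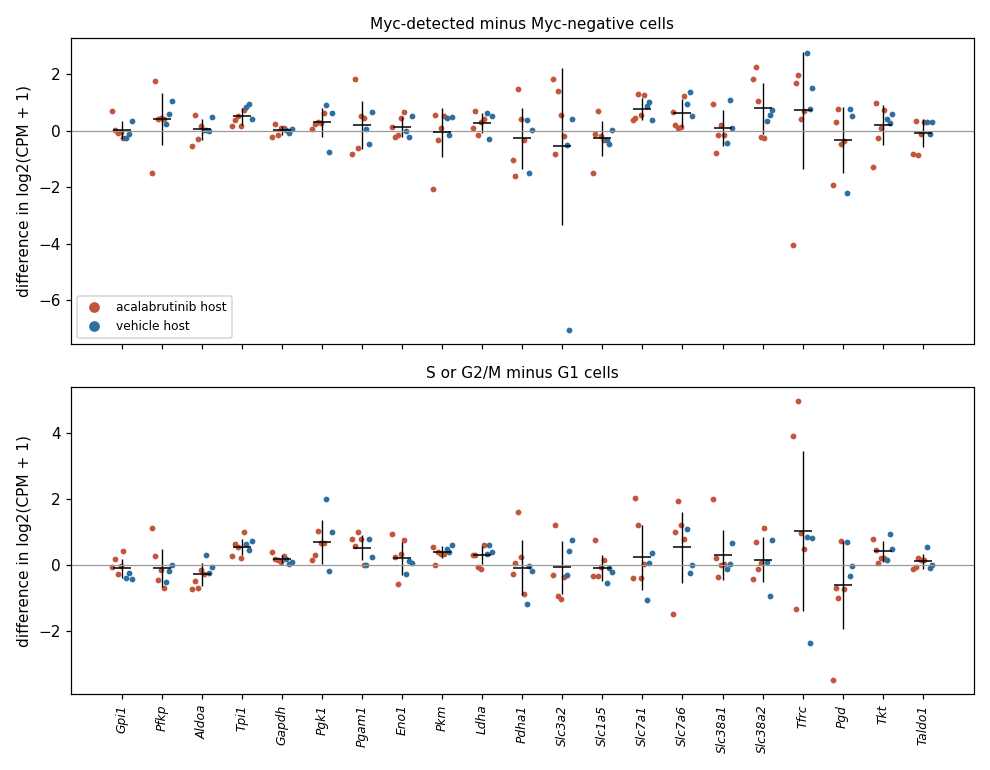
Difference in log2(CPM + 1) between 2 states of the same host for the 21 members found in at least 25% of cells, with *Myc*-detected minus *Myc*-negative cells above and S or G2/M minus G1 cells below. Points are hosts (red acalabrutinib, blue vehicle), and bars give the mean and SD over 8 hosts. All 8 points lie above 0 for *Tpi1* in both panels, for *Slc7a1* and *Slc7a6* above, and for *Gapdh*, *Pgam1*, *Pkm* and *Tkt* below.

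By summed level, 5 members were higher in every host with cycling state and 3 with *Myc* detection. The share of all genes higher in every host was also larger with cycling state (3.04% against 0.718%). Cells were called G1 (263 cells) or S or G2/M (374 cells) from the phase genes of Seurat, which hold no member. *Mki67*, a proliferation marker, was found in 22.1% and 84.0% of them. It is itself a phase gene, so these shares are no independent check of the call. *Tpi1*, *Gapdh*, *Pgam1*, *Pkm* and *Tkt* were higher in S or G2/M than in G1 cells in 8 of 8 hosts. They are 15.6% of the 32 members tested, against 3.04% of all 20762 genes tested and 7.6% of genes at 50 CPM or more. Lower in 8 of 8 hosts were 1.18% of all genes, 3.72% of genes at 50 CPM or more and no member.

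*Tpi1* came nearest to the threshold. Its level in G1 cells ran from 170 through a median of 209 to 330 CPM, and in S or G2/M cells from 233 through 314 to 383 CPM. Each host was higher in its cycling cells. The log2 fold change was 0.53 ± 0.11 (edgeR adjusted p = 0.0503). *Pkm* ran from 327 through 402 to 498 CPM in G1 and from 418 through 535 to 630 CPM in S or G2/M cells, a log2 fold change of 0.37 ± 0.08 (edgeR adjusted p = 0.0511). Its smallest difference was in A8, and without A8 it passed at 0.41 ± 0.08 (edgeR adjusted p = 0.0489). DESeq2 called both, *Tpi1* at an adjusted p of 0.000632 and *Pkm* at 0.00241, and no other member (6.25% of members, against 9.89% of all genes). *Mki67* and *Top2a* are both phase genes. Where cells with counts of both were set against cells with neither, *Tpi1* passed in edgeR as well, at a log2 fold change of 0.81 ± 0.16 (adjusted p = 0.0443). Over 13 alternative edgeR fits the adjusted p ran from 0.0443 to 0.159 for *Tpi1* and from 0.0489 to 0.183 for *Pkm*. Whether *Tpi1* and *Pkm* passed the threshold thus depended on the test.

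In all, edgeR called 0 of the 32 members, against 1.29% of all genes (267 genes, 177 higher and 90 lower). At an unadjusted p under 0.05 there were 7 members (21.9%), against 10.5% of all genes. Of these 7 members 6 had positive log2 fold changes. *Pgam1* stood at 191 ± 27.8 CPM in S or G2/M and 136 ± 40.0 CPM in G1 cells (log2 fold change 0.51 ± 0.16, edgeR adjusted p = 0.258) and *Tkt* at 466 ± 50.8 against 356 ± 81.1 CPM (0.39 ± 0.11, edgeR adjusted p = 0.175). *Pgk1* was higher in 7 of 8 hosts (148 ± 33.2 against 98.2 ± 43.6 CPM) and *Ldha* in 6 of 8 (662 ± 56.4 against 546 ± 118 CPM). *Aldoa* was the exception, lower in 7 of 8 hosts at 360 ± 54.6 against 438 ± 70.3 CPM, with a log2 fold change of -0.31 ± 0.12 (edgeR adjusted p = 0.395). *Gapdh* differed little in size (406 ± 42.9 against 358 ± 23.5 CPM) although every host was higher.

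**Figure D4:**
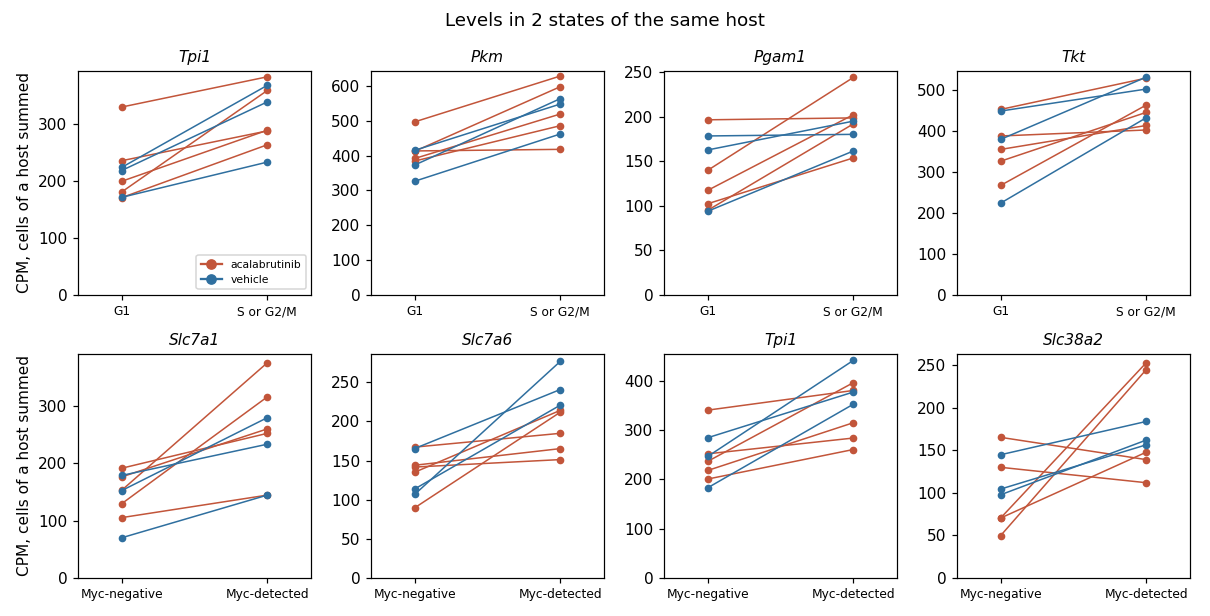
CPM of the summed cells of each host in 2 states, joined by a line per host (red acalabrutinib, blue vehicle), for *Tpi1*, *Pkm*, *Pgam1* and *Tkt* by cycling state (upper row) and *Slc7a1*, *Slc7a6*, *Tpi1* and *Slc38a2* by *Myc* detection (lower row). Every line rises except those of 2 hosts for *Slc38a2*.

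Other members were less uniform over hosts. *Gpi1*, *Pfkp* and *Slc1a5* were each lower in S or G2/M cells in 6 of 8 hosts, and *Slc7a1*, *Slc7a6*, *Slc38a1* and *Slc38a2* were each higher in 5 of 8. *Pgd* was lower in 6 of 8 hosts, at 133 ± 60.9 against 167 ± 46.2 CPM. The median log2 fold change was 0.17 for the members at 50 CPM or more and 0.03 for all genes at that level. Phases were called again on the thinned counts, which gave 348 S or G2/M and 225 G1 cells. In thinned cells *Tpi1* was found in 76.4% of S or G2/M and 50.7% of G1 cells and *Taldo1* in 72.1% and 60.9%. These 2 of 26 members were higher in every host (7.69%, against 14.0% of all genes found in at least 10% of thinned cells). By share of cells, therefore, the members did not stand above the background.

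Other values moved with cycling state. S or G2/M cells had a median of 875636.5 counts and 4309.5 genes, against 689733 and 3500 in G1 cells. Among marker genes *Cd83*, a marker of the LZ, was lower (log2 fold change -0.78 ± 0.13, edgeR adjusted p = 0.0209). Of 8 B cell markers 5 were lower, and of 8 LZ markers 2. Of 5 dark zone markers tested, *Polh* was higher (2.76 ± 0.38, edgeR adjusted p = 0.00673) and *Foxo1* lower (-0.33 ± 0.07, edgeR adjusted p = 0.0491). Their part in the differences of the glycolytic genes was not tested.

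*Myc* detection and cycling went together, since 68.9% of *Myc*-detected and 54.8% of *Myc*-negative cells were in S or G2/M. With both states in 1 fit, edgeR called no member in any of the 5 contrasts, against 0.484% of all genes for cycling in *Myc*-negative cells, 0.145% for cycling in *Myc*-detected cells, 0.0774% for *Myc* in G1 cells, 0.0% for *Myc* in S or G2/M cells and 0.00484% for the interaction. At an unadjusted p under 0.05 there were 6 members (18.8%, against 7.19% of all genes) for cycling in *Myc*-negative cells. There were 3 (9.38%, against 9.63%) for cycling in *Myc*-detected cells and 3 (9.38%, against 10.3%) for *Myc* in G1 cells. There were 2 (6.25%, against 4.10%) for *Myc* in S or G2/M cells and 2 (6.25%, against 5.82%) for the interaction. DESeq2 called 3, 3, 5, 2 and 2 members in that order, each below the share of all genes it called (11.1%, 17.0%, 18.8%, 6.68% and 10.2%). Some of these calls rest on few cells or reads. *Pfkm*, found in 33 cells, had log2 fold changes of 21.5 for cycling in *Myc*-detected cells and -23.4 for *Myc* in G1 cells. *Slc2a3*, with a median of 3 counts per positive cell, had 4.91 for cycling in *Myc*-negative cells and -3.78 for *Myc* in S or G2/M cells. Both were also the members called for the interaction. *Tpi1* had positive differences within each stratum. Its log2 fold change with cycling was 0.51 ± 0.14 in *Myc*-negative and 0.68 ± 0.19 in *Myc*-detected cells, and with *Myc* it was 0.45 ± 0.17 in S or G2/M and 0.27 ± 0.17 in G1 cells (edgeR adjusted p = 0.201, 0.258, 1.0 and 0.577). *Ldha* differed with *Myc* by 0.47 ± 0.16 in G1 and 0.21 ± 0.16 in S or G2/M cells (edgeR adjusted p = 0.349 and 1.0), and *Slc7a1* by 1.26 ± 0.43 and 0.33 ± 0.43 (edgeR adjusted p = 0.344 and 1.0). States with fewer than 5 cells were left out, so only 5 of 8 hosts gave a value for each of the *Myc*-detected states.

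Summed over the 14 glycolytic enzymes and *Ldha*, the level was 3133 ± 455 CPM in *Myc*-negative G1 cells, 3427 ± 398 CPM in *Myc*-negative S or G2/M cells, 3805 ± 693 CPM in *Myc*-detected G1 cells (n = 5) and 3996 ± 276 CPM in *Myc*-detected S or G2/M cells (n = 5). Both *Myc*-detected means lay above both *Myc*-negative means, but the ranges overlapped, and the *Myc*-detected states come from different sets of hosts (A8 gave a value in G1 only and V5 in S or G2/M only). Between *Myc*-detected G1 and S or G2/M cells, A11 went from 4233 to 4177 CPM, A12 from 3917 to 3828, V9 from 4187 to 4349 and A10 from 2584 to 3654, so no order of these states was common to the hosts. In A10 the *Myc*-negative G1 cells, at 3878 CPM, were the highest of its states. Without thinning or pooling, single cells spread more than the states, from 1741 CPM at the lowest decile to 5231 CPM at the highest over all 637 cells.

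**Figure D5:**
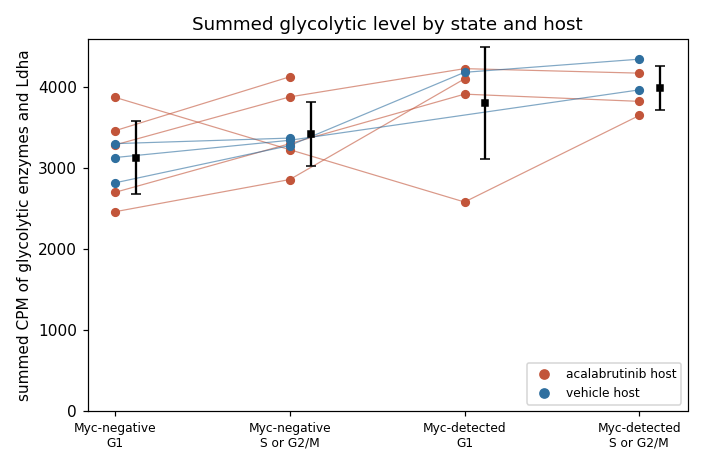
Summed CPM of 14 glycolytic enzymes and *Ldha* by host in the 4 combinations of *Myc* detection and cycling state. Points are hosts (red acalabrutinib, blue vehicle) joined by lines, and black squares give the mean and SD over hosts (n = 8 for *Myc*-negative, 5 for *Myc*-detected states). The 4 means lie between 3133 and 3996 CPM with overlapping points, and between the *Myc*-detected states A11 and A12 go down while A10 and V9 go up.

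From cell to cell the correlations between members were low. Over 573 thinned cells, with each host's mean removed, the 210 pairs of the 21 members found in at least 25% of cells had a median Pearson r of 0.0961, from -0.0226 to 0.251. The 9 pairs above 0.2 were *Ldha* with *Tkt* (0.251), *Tpi1* with *Pkm*, *Pgam1* with *Pkm* (0.248) and others among glycolytic and pentose phosphate enzymes, with no amino acid carrier. These cells share libraries, plates and dropout, and no values for pairs of other genes are given, so the values are descriptive.

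Acalabrutinib and vehicle hosts were not distinguished by any member. *Ldha* stood at 619 ± 71.7 CPM in acalabrutinib (n = 5) and 579 ± 72.4 CPM in vehicle hosts (n = 3), with overlapping ranges, and *Tpi1* at 274 ± 55.5 and 272 ± 61.0 CPM. Likewise *Pkm* stood at 477 ± 63.1 and 464 ± 48.8 CPM, a log2 fold change of 0.03 ± 0.15. The smallest unadjusted p among members were those of *Pgk1* and *Slc3a2*. *Pgk1* stood at 142 ± 31.8 against 106 ± 18.2 CPM (log2 fold change 0.41 ± 0.23, unadjusted p = 0.104) and *Slc3a2* stood at 109 ± 7.46 against 133 ± 14.6 CPM (-0.30 ± 0.17, unadjusted p = 0.109), both with an edgeR adjusted p of 1.0. For *Slc3a2* the acalabrutinib hosts lay between 104 and 122 CPM and the vehicle hosts at 118, 134 and 147 CPM, so the ranges overlapped.

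By edgeR 0 of 32 members and 0.0% of 18016 genes were called for treatment, with 0 members and 616 genes at an unadjusted p under 0.05. DESeq2 called 0 members and 94 genes. The median log2 fold change was -0.02 for the members and 0.02 for all genes. Within G1-called or within S or G2/M cells alone edgeR called no member either. Nor did the difference between *Myc*-detected and *Myc*-negative cells depend detectably on treatment, as 0 members and 0.0% of genes were called (0 members and 417 genes at an unadjusted p under 0.05, and 0 members and 363 genes called by DESeq2). There were only 5 against 3 hosts, both genotypes were pooled per host, and p-values were adjusted over 18016 genes. Differences of the size of these standard errors, and also differences well above them, could therefore go undetected.

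In the 7 lists of other genes of these pathways, edgeR called 1 gene. Their 83 genes cover regulators of glycolysis, further sugar and pentose phosphate enzymes, mitochondrial pyruvate entry, further nutrient transporters, iron handling, and serine, glutamine and asparagine metabolism. With cycling state 1 of 77 tested passed in edgeR (1.29% of all genes did) and 13 in DESeq2 (9.89% of all genes). With *Myc* detection 0 of 76 passed in edgeR (0.0% of all genes) and 9 in DESeq2 (7.36%). With treatment 0 of 75 passed in either. At an unadjusted edgeR p under 0.05 there were 9 of 77 for cycling (against 10.5% of all genes), 10 of 76 for *Myc* (against 9.56%) and 7 of 75 for treatment (against 3.42%). Each lay above the share of all genes, by most for treatment, where none passed after adjustment. The gene that passed in edgeR was *Psat1*, an aminotransferase of serine synthesis. It ran from 105 through a median of 193 to 257 CPM in S or G2/M cells and from 52.1 through 75.3 to 146 CPM in G1 cells, a log2 fold change of 1.03 ± 0.18 (edgeR adjusted p = 0.0216).

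The 250 bases before the start of transcription are shown for the members that came nearest to the threshold, *Tpi1* and *Pkm* with cycling state and *Slc7a1* with *Myc* detection, and for *Ldha*, the member of highest level per kilobase. Sequences are from RefSeq on GRCm38.p6, read 5′ to 3′ on the gene's strand. Where a gene has several starts, the most upstream is given. Capitals mark ACGTG or its reverse complement CACGT, the core shared by the E-box CACGTG, which Myc can bind, and by sites of hypoxia-inducible factors. The windows are chr6:124814159-124814408 (minus strand) for *Tpi1*, chr9:59656326-59656575 (plus) for *Pkm*, chr5:148399905-148400154 (minus) for *Slc7a1* and chr7:46845554-46845803 (plus) for *Ldha*.
Tpi1: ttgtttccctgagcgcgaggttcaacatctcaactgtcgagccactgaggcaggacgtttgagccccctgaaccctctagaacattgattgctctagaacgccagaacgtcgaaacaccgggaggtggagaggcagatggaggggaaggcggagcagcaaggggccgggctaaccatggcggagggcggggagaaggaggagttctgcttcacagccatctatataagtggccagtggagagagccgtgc
Pkm: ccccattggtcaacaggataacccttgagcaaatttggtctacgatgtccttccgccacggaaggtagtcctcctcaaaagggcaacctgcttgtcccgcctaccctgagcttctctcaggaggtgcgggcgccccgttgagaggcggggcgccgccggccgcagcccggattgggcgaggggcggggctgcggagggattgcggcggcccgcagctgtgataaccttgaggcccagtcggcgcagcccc
Slc7a1: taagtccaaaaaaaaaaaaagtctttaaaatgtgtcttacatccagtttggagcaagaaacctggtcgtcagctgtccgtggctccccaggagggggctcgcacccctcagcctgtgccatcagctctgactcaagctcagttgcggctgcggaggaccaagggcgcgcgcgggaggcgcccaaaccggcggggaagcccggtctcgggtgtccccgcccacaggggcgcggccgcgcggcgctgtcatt
Ldha: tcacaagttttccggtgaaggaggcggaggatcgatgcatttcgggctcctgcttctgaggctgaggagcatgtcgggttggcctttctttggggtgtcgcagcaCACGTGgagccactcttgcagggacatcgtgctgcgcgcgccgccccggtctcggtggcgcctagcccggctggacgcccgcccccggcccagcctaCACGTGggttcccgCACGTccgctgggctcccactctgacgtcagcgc
The *Ldha* window holds 3 runs in capitals, 2 of them the full CACGTG, and the other windows hold none. Of the 34 members 30 had an entry, with 46 starts. CACGTG, which reads the same on both strands, was in 3 of these 46 windows (6.52%, for *Ldha*, *Pfkm* and *Slc16a1*), against 6.02% of all 32851 windows of this length. ACGTG or CACGT, which includes every CACGTG, was in 16 (34.8%), against 16.6% of all. These are matches of letters only, and starts of 1 gene can share sequence.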

How the data were processed

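Per the methods, reads were mapped by the authors with STARsolo 2.7.10a to GRCm39 and counted over exons and introns, with reads at the same position counted once, and the deposited matrix holds these counts without normalization (637 cells, 132412 to 1825420 counts each). Cells were assigned to hosts by name and to treatments by the labels of 16 samples. Phases were called with Seurat 5.3.0. Counts were summed per host, or per host and state of at least 5 cells, and tested with edgeR 4.0.16 (quasi-likelihood, TMM scaling, filterByExpr, Benjamini-Hochberg adjustment, threshold 0.05), with the host as a block between states because both states come from the same mouse. *Myc*, or the phase genes, were left out of the fits of their own state. The fitting script was tested on simulated data. *Aldoa* was read from the first of its 2 entries. DESeq2 1.42.0, other scaling and filters, thinned cells, other state calls and each host left out were tried. All 34 members are named, and of other lists at most the 2 genes of largest change in each direction among those that passed. Members and lists were chosen with earlier results of these data known. The hosts come from 2 independent experiments not given in the labels, so experiment and host cannot be told apart.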

Additional observations from a re-analysis of the deposited data

Results flagged for a closer look

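Among the 5 acalabrutinib hosts, 4 member genes had 1 host far from the others by Dixon's test at the 95% level, which flags about 1 in 20 groups by chance. *Pfkl*, the liver-type phosphofructokinase, was 134 CPM in A7, against 54.0 to 60.8 CPM in the other acalabrutinib hosts. *Tkt* was 495 CPM in A11, against 357 to 390 CPM in the other acalabrutinib hosts. It stood near this level in the vehicle hosts V5 (476 CPM) and V9 (479 CPM), with 340 CPM in V7. *Ldhb* was 2.20 CPM in A8 and 0.0 CPM in the other acalabrutinib hosts, so its flag follows from the single cell with counts. *Slc16a3* was 6.06 CPM in A12, with at most 0.0373 CPM in the other acalabrutinib hosts. It had counts in only 7 cells of all hosts, so its flag also rests on very few cells. The 3 vehicle hosts are too few for this test.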

How the results depend on the processing

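With host left out as a replicate block, edgeR still called 0 members in every comparison that had the block (all but treatment), but 357 genes for cycling (267 with the block), 21 for *Myc* (0) and 144 for *Myc* in G1 cells (16). DESeq2 was the alternative that called most members, with 5 for *Myc*, 2 for cycling, 5 for *Myc* in G1, 2 for *Myc* in S or G2/M, 3 for cycling in *Myc*-negative, 3 for cycling in *Myc*-detected cells and 2 for the interaction, where edgeR called 0. It called 2053 genes for cycling, 1547 for *Myc*, 94 for treatment and, in the order of the last 5 comparisons, 3894, 1381, 2302, 3525 and 2113. In edgeR 1 member was called for cycling by *Mki67* and *Top2a*, and leaving out each host gave 0 to 1 members for cycling, 0 in every other comparison, and 143 to 214 genes for cycling. The cause of these differences was not tested. RLE scaling, no filter on low counts and thinning called 0 members in every comparison, and a *Myc* threshold of 10 reads called 0 in every comparison that uses *Myc*. Over the alternatives 5 log2 fold changes of members were called for *Myc* and 4 for cycling, all in the direction of the main fit. None was called for treatment. Of those not called, 80 for treatment, 70 for *Myc* and 24 for cycling had the opposite sign to the main fit. The sign was the same in 366, 404 and 419. Members in at least 10% of cells numbered 27, 23 at 10 counts or more and 26 after thinning. Levels under about 50 CPM rested on few cells, and their standard errors leave large differences undetected.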
